A study of Mus musculus with 12 samples.

Results

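H2-K1 is a single gene of the deposited count table, 1 of 38561 genes, found by its Ensembl identifier ENSMUSG00000061232. It lies on the minus strand at chr17:33996017-34000347 in GRCm38, is annotated as protein coding, and has 2938 bases in the union of its annotated exons. It encodes the K heavy chain of the mouse MHC class I molecule. It was chosen because its counts differed between islets with and without the insHEL transgene, so those differences are given as a description with no test. The tests below concern the 2 strains, the interaction of strain and transgene, and other genes. A gene passed at a p of 0.05 in edgeR's quasi-likelihood test after Benjamini-Hochberg adjustment over all 15352 genes tested.

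Each of 12 libraries holds islet RNA of 1 male mouse, 11 weeks old, and the mice form 4 groups of 3. NOD_insHEL mice have the NOD/LtJ background and the transgene Tg(ILK3mHEL)3Ccg, while NOD mice have the same background without it. B10_insHEL mice have the C57BL/10SnSg background with the same transgene, and B10 mice have that background without it. All 4 groups carry a Rag mutation labelled Ragtm1Mom, which leaves no mature B or T cells, share the MHC k haplotype labelled BR-H2k, and were normoglycemic. Islets were released with collagenase in the presence of α-amanitin and actinomycin D, which block transcription, and were picked by hand. Pooled islets of 1 mouse, 20 to 137 in number, gave each library.

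MHC class I molecules carry peptides from inside the cell to its surface, where CD8 T cells read them. Each consists of a polymorphic heavy chain and the invariant light chain B2m. In the heavy chain gene, exons 2 to 4 encode the 3 extracellular domains, exon 5 the membrane-spanning stretch and the later exons the cytoplasmic tail. As background, the membrane-bound form of hen egg lysozyme used in such mice joins lysozyme to the membrane anchor of the K heavy chain of the b haplotype, and an insulin promoter restricts it to beta cells. Which H2-K1 exons the construct holds is not given in the sources used here. GRCm38 comes from a mouse of the b haplotype, whereas these mice carry k. A count of H2-K1 reads per gene can therefore hold reads of the endogenous gene and of the construct, and the 2 sources cannot be told apart in it. How well reads of the k haplotype match the b reference was not tested. The levels, fold differences, ratios and shares of H2-K1 below may depend on it.

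Exon 5 is shown because the membrane anchor is the stretch that the gene and such a construct would share, beside exon 5 of H2-D1, the other classical class I heavy chain of the reference haplotype. The sequences are those of the principal transcript of each gene in GENCODE vM21, with capitals at bases that are mismatched to, or absent from, the other gene. H2-K1 exon 5 spans chr17:33997038-33997157 on the minus strand and H2-D1 exon 5 spans chr17:35266187-35266303 on the plus strand.
H2-K1: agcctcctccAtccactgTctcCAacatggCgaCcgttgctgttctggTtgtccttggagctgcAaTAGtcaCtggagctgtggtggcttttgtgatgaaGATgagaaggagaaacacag
H2-D1: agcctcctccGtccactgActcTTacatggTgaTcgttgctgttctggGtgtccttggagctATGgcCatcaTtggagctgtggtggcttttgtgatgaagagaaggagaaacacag
The 2 exons were identical at 85.4% of 123 aligned columns, gaps included. Exon 4, which encodes the domain next to the membrane, was the most alike of the exons compared at 96.0% identity. Exons 2 and 3, which form the peptide groove, had 91.1% and 88.0%.

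Because of that likeness, the share of H2-K1 sequence that another gene also holds was counted. Of the 1570 windows of 50 bases in the principal H2-K1 transcript, 1432 (91.2%) were found in no other gene of the annotation. Of the 138 shared windows, 109 occurred in H2-D1. Windows in exon 5 were specific at 92.5%, while exons 4 and 6 had the lowest values, 70.3% and 69.7%. All 1520 windows of 100 bases were specific. The read length is not given in the sources used here, and the k haplotype sequence was not used.

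**Figure D1:**
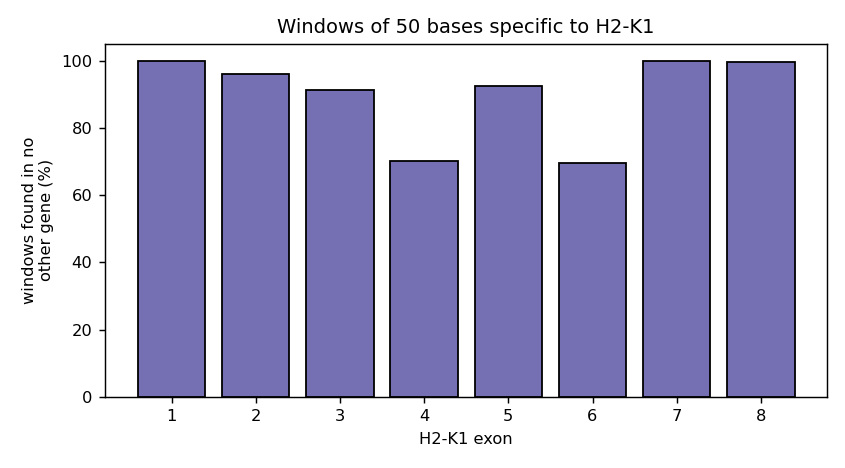
Percent of 50-base windows of the principal H2-K1 transcript that occur in no other annotated gene (vertical axis), by the exon that holds the middle of the window (horizontal axis). Exons 1 and 7 are at 100%, and exons 4 and 6 are lowest at 70.3% and 69.7%.

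The libraries held 2212062 counts (NOD_insHEL replicate 3) to 21138456 counts (B10 replicate 2), and H2-K1 had 2022 counts or more in each, so that its counts limit the precision less than the spread between mice does. Summed levels of 8 beta cell markers were 260544 to 292627 CPM (counts on a common scale of library totals, here adjusted by TMM) in NOD_insHEL, 252906 to 260347 in NOD, 203989 to 272059 in B10_insHEL and 182083 to 203291 in B10, which fits the islet label. Of 6 lymphocyte markers none had enough counts to be tested, and their sum was at most 1.41 CPM. Sums of 10 acinar markers (digestive enzymes of the surrounding pancreas) were 31.9 to 64.7 CPM in NOD_insHEL, 111 to 202 in NOD, 27.3 to 1949 in B10_insHEL and 2842 to 3661 in B10. None of the 10 was at 0 in a whole group, and the highest value in B10_insHEL was that of replicate 2. In their descriptions the B10 libraries bear a separate run of numbers, while the other 9 lie between 1 and 29. Should this numbering mark a batch, it cannot be told apart from the group in any comparison with B10.

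H2-K1 was high in every islet library with insHEL and low in every library without it. Its level was 5027, 4832 and 4458 CPM in NOD_insHEL, against 227, 276 and 291 CPM in NOD. It was 5016, 3555 and 5327 CPM in B10_insHEL, against 181, 174 and 166 CPM in B10. The groups with and without the transgene did not overlap in either strain: the lowest NOD_insHEL library was 15.3-fold above the highest NOD library, and the lowest B10_insHEL library was 19.6-fold above the highest B10 library. The position of all 12 libraries matched their transgene labels. Since the gene was chosen for this difference, the match is a description and no check of the labels.

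As shares of the library, H2-K1 took 0.484%, 0.471% and 0.429% of counts in NOD_insHEL, against 0.0232%, 0.0286% and 0.0299% in NOD. It took 0.471%, 0.356% and 0.492% in B10_insHEL, against 0.0190%, 0.0182% and 0.0175% in B10. The widest exact 95% binomial interval, in the shallowest library (NOD_insHEL replicate 3), was 0.421 to 0.438%. These intervals cover counting error only and not the spread between mice. The reads carry no molecular identifiers, so duplicate reads count as separate ones.

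Group means were 4772 ± 289 CPM in NOD_insHEL and 265 ± 33.3 CPM in NOD (SD, n = 3 each), and 4633 ± 946 CPM in B10_insHEL and 174 ± 7.49 CPM in B10 (SD, n = 3 each). The fitted log2 difference was 4.17 (SE 0.15, 95% interval 3.85 to 4.49) for NOD_insHEL minus NOD, an 18.0-fold higher level. It was 4.74 (SE 0.16, 95% interval 4.41 to 5.07) for B10_insHEL minus B10, a 26.7-fold higher level. Among the 15352 genes tested, H2-K1 had the highest log2 difference among increases in NOD and the second highest in B10. By absolute size, falls included, it was the fifth in NOD and the fourth in B10. Ahead of it in B10 was Thbs4, named after its values were seen, with a mean over all libraries of 1.04 CPM. No p-value is given for these differences, since they chose the gene.

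**Figure D2:**
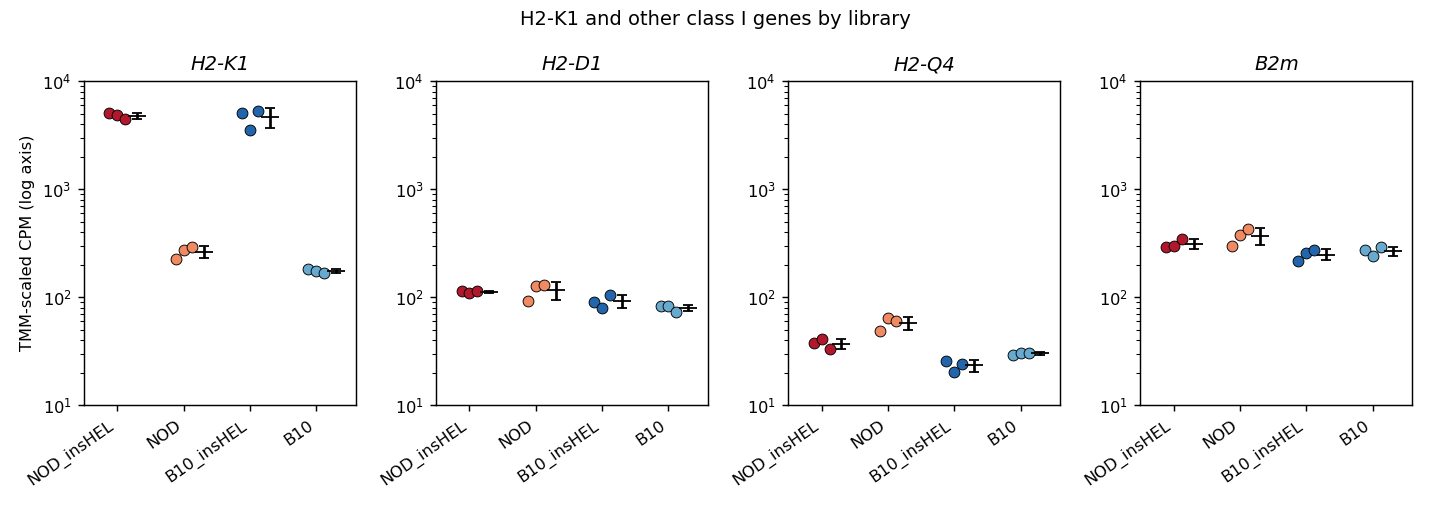
TMM-scaled CPM (log axis) of H2-K1, H2-D1, H2-Q4 and B2m in the 3 libraries of NOD_insHEL, NOD, B10_insHEL and B10 (horizontal axis), with points for libraries and bars for the mean ± SD. H2-K1 lies at 3555 CPM or more in libraries with insHEL and at 291 CPM or less in those without, whereas the group means of the other 3 genes stay between 23.4 and 369 CPM.

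In order of mean level the groups ran NOD_insHEL, B10_insHEL, NOD and B10. The first 2 differed by less than the spread between their mice, with a log2 difference of 0.04 for NOD_insHEL minus B10_insHEL (SE 0.14, 95% interval −0.24 to 0.32, edgeR quasi-likelihood adjusted p = 0.881), a comparison in which 12.1% of all genes passed. Without the transgene H2-K1 was higher in NOD than in B10 in all 3 libraries against all 3, with a log2 difference of 0.61 (SE 0.14, 95% interval 0.32 to 0.89, edgeR quasi-likelihood adjusted p = 0.00251), a comparison in which 28.4% of all genes passed. In bulk islets, fewer cells of a type and less RNA per cell cannot be told apart. With an acinar score (the mean log2 level of the 10 acinar markers) as a covariate the strain difference was 0.23 and no longer passed (edgeR adjusted p = 0.479). Of the 10 acinar markers 6 were lower in NOD than in B10 and none was higher, and of 7 endothelial markers, a cell type rich in class I molecules, 6 were higher, with sums of 968 to 1409 CPM in NOD and 681 to 762 CPM in B10. The acinar score was 3.33 to 4.21 in NOD and 7.61 to 7.97 in B10, with no overlap. The covariate fit therefore cannot tell acinar content from strain in this comparison, and the score holds no endothelial marker. The parts of acinar and endothelial cells in the strain difference were not tested.

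The difference between the strains in the size of the transgene contrast, the interaction, was −0.56 (SE 0.19, 95% interval −0.96 to −0.16). Its unadjusted p was 0.00799 and its edgeR quasi-likelihood p adjusted over all genes was 0.263, so that it did not pass. Of 12 fits that each left out 1 library it passed in 1, that without B10_insHEL replicate 2, at −0.72 (edgeR adjusted p = 0.0425). Over 7 alternatives of processing it was −0.55 to −0.28 and passed in none (edgeR or DESeq2 adjusted p = 0.108 to 0.668). Only 9 of the 15352 genes, or 0.0586%, passed for this term. On the linear scale the excess of each transgenic library over the mean of its strain without the transgene was 4763, 4567 and 4193 CPM in NOD_insHEL, against 4842, 3381 and 5154 CPM in B10_insHEL. The means of this excess, 4508 ± 289 CPM in NOD_insHEL and 4459 ± 946 CPM in B10_insHEL (SD, n = 3 each), differed by less than the spread of either group.

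H2-K1 was next set against the insulin genes, since an insulin promoter drives the transgene. Ins1 and Ins2, the 2 mouse insulin genes, together took 22.5%, 22.4% and 25.6% of counts in NOD_insHEL, 23.3%, 24.3% and 24.2% in NOD, 21.6%, 16.3% and 20.6% in B10_insHEL, and 17.6%, 15.8% and 16.8% in B10. For each 100 insulin counts there were 2.15, 2.10 and 1.68 H2-K1 counts in NOD_insHEL, against 0.0994, 0.118 and 0.123 in NOD. There were 2.18, 2.19 and 2.39 in B10_insHEL, against 0.108, 0.116 and 0.105 in B10. B10_insHEL replicate 2, the lowest of the transgenic libraries in CPM, lay between the other 2 of its group on this scale. The lowest was NOD_insHEL replicate 3, the library with the fewest counts.

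Per 100 insulin counts the means were 1.98 ± 0.258 in NOD_insHEL and 2.25 ± 0.121 in B10_insHEL (SD, n = 3 each). All 3 NOD_insHEL values were below all 3 B10_insHEL values. The difference of −0.276 had an exact two-sided permutation p of 0.1, the smallest that 3 against 3 can give, and an adjusted p of 0.2 over 8 such comparisons. Without the transgene the means were 0.113 ± 0.0125 in NOD and 0.109 ± 0.00570 in B10 (SD, n = 3 each), with overlapping libraries and an exact permutation p of 0.7. On the CPM scale the same 6 libraries did not overlap.

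Ratios to other genes use the same H2-K1 counts, so they restate the transgene difference that chose the gene and are given as a description. Per 100 counts of Iapp, the islet amyloid polypeptide that beta cells release with insulin, H2-K1 had 20.5 ± 0.320 counts in NOD_insHEL and 1.42 ± 0.263 in NOD (SD, n = 3 each). It had 12.7 ± 2.48 in B10_insHEL and 0.628 ± 0.0496 in B10 (SD, n = 3 each). Iapp itself was lower in NOD than in B10 by a log2 difference of −0.56 without the transgene (edgeR adjusted p = 0.00135) and −0.64 with it (edgeR adjusted p = 6.67e-04). Per 100 counts of H2-D1 the values were 4245 ± 294 in NOD_insHEL, against 229.6 ± 15.8 in NOD, and 5042 ± 523 in B10_insHEL, against 219 ± 7.16 in B10 (SD, n = 3 each).

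**Figure D3:**
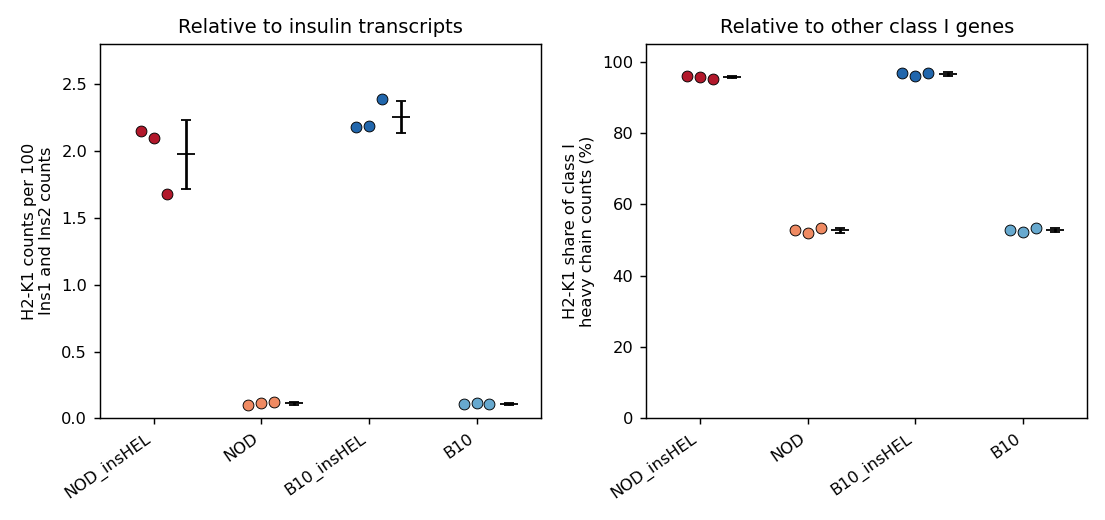
H2-K1 counts per 100 counts of Ins1 and Ins2 (left) and as a percent of counts assigned to class I heavy chain genes (right). The groups are NOD_insHEL, NOD, B10_insHEL and B10, with points for libraries and bars for the mean ± SD. With insHEL the H2-K1 counts may include the construct. Libraries with insHEL lie at 1.68 to 2.39 per 100 insulin counts, and those without at 0.123 or less.

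The insulin genes and 4 further beta cell genes were examined for changes of their own. In B10_insHEL minus B10, Ins1 (log2 difference 0.54, SE 0.14, edgeR adjusted p = 0.0264) and Iapp (0.39, SE 0.12, edgeR adjusted p = 0.0468) rose, 2 of the 6 genes, against 4.09% of all genes higher. Among the 8 beta cell markers of the islet check, which hold Ins1 and Iapp too, 2 rose and 2 fell in that comparison: Slc2a2, the glucose transporter gene of beta cells (−0.83, edgeR adjusted p = 0.00366), and Nkx6-1, a beta cell transcription factor gene (−0.44, edgeR adjusted p = 0.0352), against 2.76% of all genes lower. In NOD_insHEL minus NOD none of the 6 passed in edgeR, against 7.06% of all genes, with 1 at an unadjusted p under 0.05, while DESeq2 called 1, Iapp, at a log2 difference of 0.31 in edgeR (adjusted p = 0.112). Ins1 stood at 76137, 76142 and 83179 CPM in NOD_insHEL and 74955, 75217 and 71159 CPM in NOD. It stood at 75635, 46881 and 68705 CPM in B10_insHEL, with replicate 2 near the 42977, 44643 and 43982 CPM of B10. The differences of these genes, all under 1 on the log2 scale, were small beside those of H2-K1.

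No other class I heavy chain gene had a rise that passed in edgeR in either transgene contrast. Of 30 symbols in that list 26 were in the file and 13 had enough counts to be tested. In B10_insHEL minus B10 none of the 13 passed, against 6.85% of all genes, with 2 at an unadjusted p under 0.05 in edgeR. DESeq2 called 1, H2-M3, a heavy chain that presents formylated peptides, whose log2 difference in edgeR was 0.41 (adjusted p = 0.0672). Their median log2 difference was −0.08, against −0.000354 for all genes. In NOD_insHEL minus NOD none rose and 1 fell, H2-Q4, against 3.88% of all genes higher and 3.18% lower, and the median was −0.05, against −0.00621 for all genes. Summed over these heavy chains without H2-K1, the level was 215 ± 4.17 CPM in NOD_insHEL and 237 ± 30.6 CPM in NOD (SD, n = 3 each), and 162 ± 13.7 CPM in B10_insHEL and 155 ± 8.36 CPM in B10 (SD, n = 3 each).

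Of the counts assigned to class I heavy chain genes, H2-K1 held 95.7 ± 0.326% in NOD_insHEL and 52.7 ± 0.777% in NOD (SD, n = 3 each). It held 96.6 ± 0.469% in B10_insHEL and 52.8 ± 0.522% in B10 (SD, n = 3 each). In libraries with insHEL the H2-K1 counts may include the construct. These shares thus restate the H2-K1 difference and need not be shares of heavy chain transcript. Without the transgene the shares of the 2 strains overlapped, with an exact two-sided permutation p of 1. Per kilobase of exon union the level of H2-K1 was 1624 CPM in NOD_insHEL, 90.1 in NOD, 1577 in B10_insHEL and 59.1 in B10. On the same scale H2-D1 had 43.6 CPM in NOD_insHEL, 45.1 in NOD, 35.4 in B10_insHEL and 30.9 in B10. B2m, the light chain, had 362 CPM per kilobase in NOD_insHEL, 429.5 in NOD, 289 in B10_insHEL and 310.3 in B10. Per kilobase, the mean of H2-K1 was above that of B2m in both groups with the transgene and below it in both groups without. With the transgene the H2-K1 value may hold construct reads, and the H2-K1 exons of the construct are not known. It cannot be read as a level of heavy chain transcript in those groups.

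H2-D1 encodes the D heavy chain and is the gene with which H2-K1 shares most windows. It had 113, 110.2 and 114 CPM in NOD_insHEL, against 92.0, 128 and 129 CPM in NOD, and 90.8, 79.2 and 104.2 CPM in B10_insHEL, against 82.7, 82.2 and 73.7 CPM in B10. The groups with and without the transgene overlapped in both strains. Neither transgene contrast passed, with log2 differences of −0.05 in NOD (SE 0.13, edgeR adjusted p = 0.866) and 0.20 in B10 (SE 0.13, edgeR adjusted p = 0.385). Between the strains without the transgene it was higher in NOD by 0.54 (SE 0.13, edgeR adjusted p = 0.00321), beside 0.61 for H2-K1, a call lost with islet number (0.0690) or the acinar score (0.234) as a covariate.

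H2-Q4 is a nonclassical heavy chain gene of the Q region. It had 37.6, 41.3 and 32.9 CPM in NOD_insHEL, against 49.1, 64.0 and 60.1 CPM in NOD, and 25.9, 20.2 and 24.2 CPM in B10_insHEL, against 29.4, 30.8 and 30.6 CPM in B10. All libraries with the transgene were below all of their strain without it. H2-Q4 fell by 0.61 on the log2 scale in NOD_insHEL (SE 0.13, edgeR adjusted p = 0.0103), a call lost without NOD_insHEL replicate 1 (edgeR adjusted p = 0.0646) or without NOD replicate 2 (0.0605). In B10_insHEL the difference was −0.37 (SE 0.13, edgeR adjusted p = 0.0897) and did not pass. There, 7 of 8 alternatives of processing gave the same result, and the lowest edgeR adjusted p was 0.0171. H2-Q4 shares 53 of the 50-base windows with H2-K1, fewer than the 109 of H2-D1. How reads that fit several genes were counted is not given in the sources used here. Their part in the H2-Q4 differences was not tested.

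H2-K2, a class I pseudogene near H2-K1, had 3.64, 5.01 and 6.10 CPM in NOD_insHEL, against 6.19, 7.49 and 5.90 CPM in NOD. It had 3.12, 4.001 and 4.44 CPM in B10_insHEL, against 5.38, 5.54 and 4.16 CPM in B10. These ranges overlapped, and neither contrast passed (edgeR adjusted p = 0.251 in NOD and 0.377 in B10). Genes around H2-K1 were also examined as a description. The part of the locus in the H2-K1 difference was not tested. Within 100 kb lie 26 genes of the file, of which 15 were tested. In NOD_insHEL minus NOD 2 of them fell and none rose, against 3.18% of all genes lower: Rgl2 by 0.58 (edgeR adjusted p = 0.0275) and Col11a2 by 0.98 (edgeR adjusted p = 0.0402). In B10_insHEL minus B10 1 rose and none fell, against 4.09% of all genes higher and 2.76% lower: the zinc transporter gene Slc39a7, by 0.69 (edgeR adjusted p = 0.0126). Median differences of the 15 were −0.13 and −0.08. Ring1, a Polycomb gene 24.3 kb away, had −0.23 in NOD and −0.08 in B10.

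**Figure D4:**
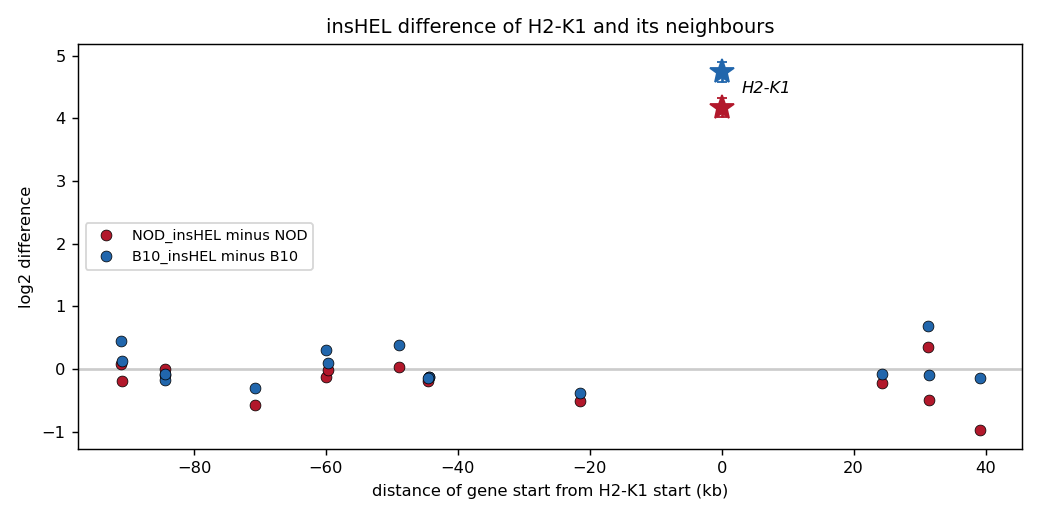
Log2 difference for NOD_insHEL minus NOD and B10_insHEL minus B10 (vertical axis) of H2-K1 (stars) and the 15 tested genes within 100 kb, by the distance of the gene start from that of H2-K1 in kb (horizontal axis). H2-K1 lies at 4.17 and 4.74, while its neighbours lie between −0.98 and 0.69.

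B2m, the light chain that the K heavy chain needs to reach the surface, had no rise that passed. It had 289.7, 296 and 348 CPM in NOD_insHEL, against 298, 379.9 and 431 CPM in NOD, and 217, 255 and 273 CPM in B10_insHEL, against 271, 239.7 and 289.5 CPM in B10. The groups overlapped in both strains, and the log2 differences were −0.25 in NOD (SE 0.13, edgeR adjusted p = 0.261) and −0.10 in B10 (SE 0.13, edgeR adjusted p = 0.699). Between the strains without the transgene B2m was higher in NOD by 0.47 (SE 0.13, edgeR adjusted p = 0.0111). That call was lost without NOD replicate 3 (edgeR adjusted p = 0.0920) or B10 replicate 2 (0.0819), and with islet number (0.112) or the acinar score (0.0813) as a covariate.

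B2m was 1 of 15 genes of peptide loading and generation examined, all of them tested. In NOD_insHEL minus NOD 2 of the 15 rose and none fell, against 3.88% of all genes higher. In B10_insHEL minus B10 3 rose and none fell, against 4.09% of all genes higher. The median log2 differences were −0.06 in NOD and −0.10 in B10, against −0.00621 and −0.000354 for all genes. Those that rose in both strains were Calr and Pdia3. The transporter genes Tap1 (−0.30, edgeR adjusted p = 0.534, in NOD and 0.01, edgeR adjusted p = 0.994, in B10) and Tap2 (−0.12, edgeR adjusted p = 0.567, and −0.22, edgeR adjusted p = 0.233) did not pass.

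Calr encodes calreticulin, a chaperone of the endoplasmic reticulum that serves class I molecules and many other secreted or membrane glycoproteins. It had 1315, 1295 and 1233 CPM in NOD_insHEL, against 936, 941 and 963 CPM in NOD, and 1044, 1119 and 1570.4 CPM in B10_insHEL, against 734, 858 and 804 CPM in B10. No library with the transgene overlapped those of its strain without it. The log2 differences were 0.44 in NOD (SE 0.13, edgeR adjusted p = 0.0428) and 0.64 in B10 (SE 0.13, edgeR adjusted p = 0.00441). The NOD call was lost when any 1 library of NOD_insHEL replicates 1 and 2, of NOD or of B10 was left out (edgeR adjusted p = 0.053 to 0.145), and also with library totals alone (0.0903) or the acinar covariate (0.0904). The B10 call was lost with the acinar score as a covariate (0.44, edgeR adjusted p = 0.305).

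Pdia3 encodes ERp57, a disulfide isomerase that works with calreticulin and also sits in the peptide-loading complex. It had 2161, 2054 and 1868 CPM in NOD_insHEL, against 1373, 1241 and 1134 CPM in NOD, and 1728, 1725 and 2198 CPM in B10_insHEL, against 1169.8, 1291 and 1375 CPM in B10. The groups did not overlap in either strain. The log2 differences were 0.70 in NOD (SE 0.12, edgeR adjusted p = 0.00432) and 0.56 in B10 (SE 0.12, edgeR adjusted p = 0.00757). The B10 call was lost without B10_insHEL replicate 3 (edgeR adjusted p = 0.0527), without B10 replicate 1 (0.0549), and with the acinar covariate (0.356). Tapbpl, a peptide editor outside the loading complex, rose in B10_insHEL by 0.54 (SE 0.14, edgeR adjusted p = 0.0264) and had 0.44 in NOD_insHEL (edgeR adjusted p = 0.0777).

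The endogenous gene responds to interferon, so 30 interferon-stimulated genes were set beside it. In B10_insHEL minus B10 none of the 30 interferon-stimulated genes passed, against 6.85% of all genes, with 1 at an unadjusted p under 0.05 in edgeR, 0 called by DESeq2 and a median log2 difference of −0.01. In NOD_insHEL minus NOD none rose and 2 fell, against 3.18% of all genes lower, with 10 at an unadjusted p under 0.05 in edgeR, 3 lower by DESeq2 (Mx1, Irf7 and Ifi44) and a median of −0.38. Mx1, an antiviral GTPase gene, fell by 2.70 on the log2 scale (edgeR adjusted p = 0.0173), with 1.15, 0.396 and 1.41 CPM in NOD_insHEL, against 2.06, 10.5 and 4.75 CPM in NOD. The Mx1 values rest on few counts, as 3 counts make 0.385 CPM in NOD_insHEL replicate 2 and 1.36 CPM in replicate 3 before TMM. Irf7, a transcription factor gene of the interferon response, fell by 1.14 (edgeR adjusted p = 0.0324), with 7.57, 5.67 and 6.57 CPM in NOD_insHEL, against 8.92, 20.7 and 14.4 CPM in NOD. Both had no overlap, and the NOD values spread widely, with replicate 2 highest. Of the 7 endothelial markers 4 fell and none rose in the same comparison, with sums of 734 to 884 CPM in NOD_insHEL and 968 to 1409 CPM in NOD. Their part in the interferon genes was not tested.

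Without the transgene, 11 of the 30 interferon-stimulated genes were higher in NOD than in B10 and none was lower, against 13.5% of all genes higher and 14.9% lower. Their median log2 difference was 0.62, beside 0.61 for H2-K1 and 0.68 for the 7 endothelial markers, 6 of which were higher. Of the 13 class I heavy chains 3 were higher (H2-D1, H2-Q4 by 0.93 and H2-T23 by 1.02) and none was lower, with a median of 0.48, against 0.03 for all genes. Of the 15 peptide-loading genes 5 were higher and 2 were lower.

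With the transgene in both strains, 3 of the 30 interferon-stimulated genes were higher in NOD_insHEL than in B10_insHEL and none was lower, against 5.55% of all genes higher and 6.5% lower. They were Psmb8 (0.70, edgeR adjusted p = 0.00335), an immunoproteasome gene that also stands among the peptide-loading genes, Gbp3 (1.06, edgeR adjusted p = 0.0440) and Gbp2 (0.88, edgeR adjusted p = 0.0321). Of the 13 heavy chains H2-Q4 (0.69, edgeR adjusted p = 0.00154), H2-T23 (0.76, edgeR adjusted p = 0.0248) and H2-M2 (1.76, edgeR adjusted p = 0.0157) were higher. H2-M2 was low in both groups, with means of 2.91 CPM in NOD_insHEL and 0.931 CPM in B10_insHEL. H2-K1, at 0.04, was not among the genes that differed here. The NOD minus B10 and NOD_insHEL minus B10_insHEL comparisons share no library.

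**Figure D5:**
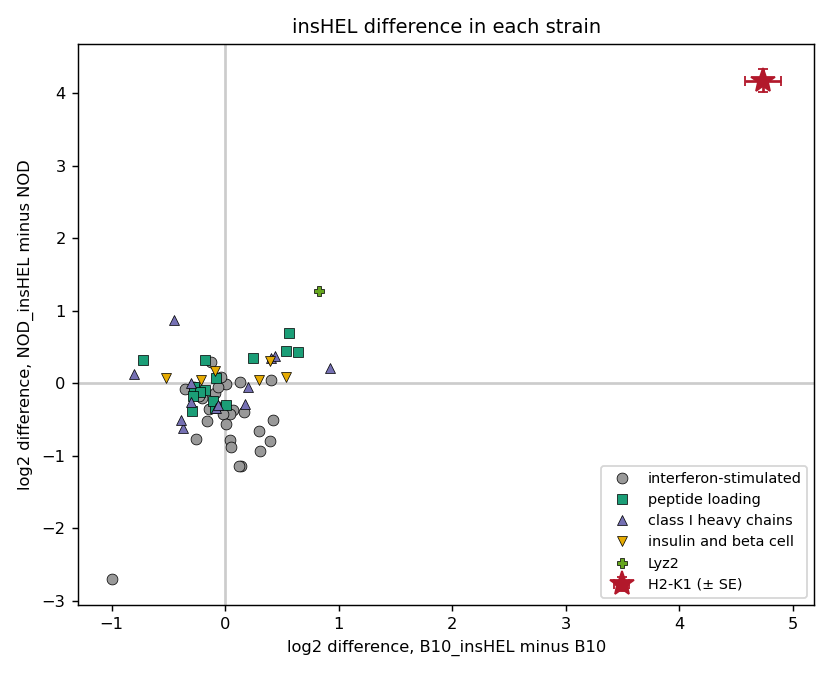
Log2 difference for B10_insHEL minus B10 (horizontal axis) and NOD_insHEL minus NOD (vertical axis) of H2-K1 (star, with SE bars) and of tested interferon-stimulated, peptide-loading, class I heavy chain and insulin and beta cell genes and Lyz2. H2-K1 lies apart at 4.74 and 4.17, while Lyz2 lies at 0.82 and 1.28.

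Hen egg lysozyme, the other part of the construct, has no row of its own among the genes of the count table, and the 2 mouse lysozyme genes were examined. Lyz1 had 0 to 21 counts a library and was not tested. Lyz2, the lysozyme gene of macrophages, had 64.8, 65.3 and 28.2 CPM in NOD_insHEL, against 17.8, 23.8 and 27.4 CPM in NOD. It had 51.9, 57.5 and 72.4 CPM in B10_insHEL, against 42.2, 35.8 and 24.5 CPM in B10. The groups did not overlap, although NOD_insHEL replicate 3 lay just above the highest NOD library.

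Lyz2 rose in NOD_insHEL by a log2 difference of 1.28 (SE 0.31, edgeR adjusted p = 0.0370), and the difference in B10_insHEL was 0.82 (edgeR adjusted p = 0.122). For B10_insHEL, 7 of 8 alternatives of processing gave the same result, and the lowest edgeR adjusted p was 0.0457. Over 12 fits that each left out 1 library its lowest edgeR adjusted p was 0.0194. The NOD call was lost without NOD_insHEL replicate 1 (edgeR adjusted p = 0.145) or replicate 2 (0.141), without any 1 NOD library (0.0763 to 0.115) and without B10 replicate 2 (0.0629), and also with no filter on low counts (0.0653) or the acinar covariate (0.0685). Summed levels of 9 macrophage and other leukocyte markers, Lyz2 among them, were 148 to 202 CPM in NOD_insHEL, 126 to 178 in NOD, 184 to 232 in B10_insHEL and 135 to 179 in B10, with none of the 9 at 0 in a whole group. Of the 9, Lyz2 rose and Csf1r fell, by 0.58, in NOD, against 3.88% of all genes higher and 3.18% lower. Their part in the Lyz2 difference was not tested.

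Genes with the pattern most like that of H2-K1 over the 12 libraries were ranked by Pearson's r of log2 CPM among the other 15351 genes. The libraries fall into 2 clusters on H2-K1, so r largely restates which genes differ between islets with and without the transgene, and no test is given. The 10 highest, with r of 0.940 to 0.967, were Laptm4a, Nucb2, Scg3, the processed pseudogene Gm8394, Spcs1, Golt1b, Fam114a1, Sec61b, Ufsp2 and Prkar1a. Of these only Spcs1, of the signal peptidase, and Sec61b, of the channel into the endoplasmic reticulum, were also among the 10 highest by Spearman's rho (0.958 and 0.951).

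Laptm4a, the most alike at r = 0.967, ranged from 466 to 497 CPM in NOD_insHEL and from 374 to 400.1 CPM in NOD, and from 466 to 498 CPM in B10_insHEL and from 352 to 382 CPM in B10. Nucb2, a calcium-binding protein gene, averaged 514 CPM in NOD_insHEL and 248 CPM in NOD, and 499.5 CPM in B10_insHEL and 229 CPM in B10. The other 8 also had their lowest library with the transgene above their highest without it. A choice by r favours such genes, and the share of all genes without overlap was not counted. None of the 10 came near the size of the H2-K1 difference. The largest was that of Nucb2, with log2 differences of 1.05 in NOD and 1.12 in B10.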

How the data were processed

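Read counts per Ensembl gene were deposited by the authors, 1 column a library, and were used as raw counts. The submitters' processing notes give GRCm38 as the build and list, per the labels, TopHat2 2.0.8b, HTSeq, cutadapt and DESeq. Annotation release, strand setting and handling of reads that fit several genes are not given in the sources used here. The labels' protocols name a stranded mRNA kit. Symbols and exons came from GENCODE vM21 by Ensembl identifier (36723 matched, 95.2%, holding 99.8% of counts).

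For the tests, edgeR 4.0.16 in R 4.3.3 was used on the 15352 genes that filterByExpr kept. TMM scaled the libraries, and a model of the 4 group means over all 12 gave robust quasi-likelihood F-tests, two-sided, and Benjamini-Hochberg adjustment over those genes (threshold 0.05). The common biological coefficient of variation was 0.142. The same fit was tested on simulated data. A standard error is the absolute log2 difference over the square root of F. The 95% intervals use the total degrees of freedom of H2-K1 (20.7), which add to the residual ones those borrowed from other genes. log2 CPM for the likeness ranking used a prior count of 2. Ratios between genes used deposited counts, with exact permutation tests over mice. Windows were exact matches to reference sequence. Alternatives were other scalings, no filter, fits to the compared groups only, the replicate number as a block, islet number or an acinar score (mean log2 of acinar marker CPM plus 1) as a covariate, DESeq2 1.42.0, and leaving out each library.

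H2-K1 and all lists were chosen with earlier results of these data known. The genes named were H2-K1, H2-D1, B2m, the insulin and lysozyme genes, list members or neighbours called in a transgene contrast or at a high level, and the 10 genes of highest r. No replicates agreed within sampling noise. With 1 library a mouse, p-values measure the spread between these mice.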

Additional observations from a re-analysis of the deposited data

How the results depend on the processing

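The H2-K1 difference by transgene kept its direction throughout. In NOD it was 4.04 to 4.18 over 8 alternatives and 4.08 to 4.25 over 12 fits that each left out 1 library. In B10 it was 4.62 to 4.90 over those 12, and 4.32 once the acinar score entered as a covariate. The same covariate took the NOD minus B10 difference of H2-K1 to 0.23 (edgeR adjusted p = 0.479), and that of NOD_insHEL minus B10_insHEL to −0.0512 (edgeR adjusted p = 0.851). Leaving out 1 library, the NOD minus B10 difference was 0.53 to 0.68, that of NOD_insHEL minus B10_insHEL −0.12 to 0.15, and the interaction −0.72 to −0.45, the lowest of the last 2 ranges coming without B10_insHEL replicate 2.

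The replicate numbers did not pair the mice: deviations of same-numbered libraries correlated at −0.0950 to 0.0803 over 18 pairs, none over 0.1, and 4 of 12 libraries correlated best with their own number. With that number as a block H2-K1 had 4.17 in NOD, 4.73 in B10, 0.61 for NOD minus B10 and −0.55 for the interaction, and genes called were 961 in NOD_insHEL minus NOD, 1032 in B10_insHEL minus B10, 4263 in NOD minus B10, 1857 in NOD_insHEL minus B10_insHEL and 8 for the interaction. The call for Lyz2 in NOD_insHEL minus NOD was lost under the block (1.25, edgeR adjusted p = 0.0840).

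Counts of genes called moved more. In B10_insHEL minus B10, 1052 became 1593 with library totals alone, 646 in a fit to those groups only, 578 with islet number and 250 with the acinar score, and leaving out 1 library gave 428 to 1566. In NOD_insHEL minus NOD, 1084 became 107 without NOD_insHEL replicate 1 and 1522 without B10_insHEL replicate 2. In NOD minus B10, 4353 became 2688 with islet number and 1334 with the acinar score, and 2868 to 4863 without 1 library. In NOD_insHEL minus B10_insHEL, 1850 became 1197 in a fit to those groups only. For the interaction, 9 became 161 with no filter, 4 with islet number, 49 with the acinar score and 105 with DESeq2, and 2 to 162 without 1 library. Class I heavy chains called in B10_insHEL minus B10 went to 1 with library totals alone and 1 with DESeq2, and without 1 library there were 0 to 1 in NOD_insHEL minus NOD and 1 to 3 in NOD_insHEL minus B10_insHEL. Library totals alone moved the median of all genes by −0.14 in B10_insHEL minus B10.

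Signs turned for Pdia3 in NOD minus B10 (0.0451 with islet number, −0.13 to 0.0308 without 1 library), for Calr in NOD_insHEL minus B10_insHEL (−0.0107 with the acinar score, −0.0711 to 0.24 without 1 library) and in the interaction (−0.31 to 0.000985), for H2-D1 in NOD_insHEL minus NOD (−0.19 to 0.0333) and for Lyz2 in NOD_insHEL minus B10_insHEL (−0.29 to 0.10). The causes were not tested.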
